A study of Mus musculus with 18 samples.

Results

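The comparison described here is between the cortex opposite to a light-stimulated hemisphere and the cortex of sham mice that received no spreading depolarization. Its members are all genes in the authors' table of the right hemisphere of stimulated mice against sham, in 6 of the 18 libraries of the study. The table lists 13166 of the 13479 genes found in any table of the series. Spreading depolarization (SD) is a wave in which cortical neurons and glia lose their membrane potential; it travels slowly through grey matter and underlies the migraine aura. By their labels, all mice of the optogenetic system were C57BL/6 females, 7 to 8 weeks old and heterozygous for Thy1-ChR2-YFP, which puts channelrhodopsin, a light-gated cation channel, under the neuronal Thy1 promoter. The 3 stimulated mice had 4 SDs over 2 h, 30 min apart, each set off by light at 2 mW for 20 s. By their titles, the right (opposite) and left (SD) libraries of a number are the sides of 1 mouse. The 3 sham mice, labelled with the same transgene, gave 1 library each, and the Thy1 level of 1 of them goes against that label. Which hemisphere was taken from sham mice, and how long after the last SD the tissue was collected, are not given in the sources used here. A second system served for comparison: wild-type C57BL/6 females of the same age with focal KCl in place of light, and NaCl as sham, with 3 libraries for each hemisphere and 3 for sham.

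An SD usually stays within the hemisphere in which it starts, since the wave does not cross the corpus callosum. The opposite cortex of the same animal is therefore often taken as an internal control, although it shares the anaesthesia, blood supply and callosal input of the SD side. Neuronal activity turns on immediate early genes, such as the transcription factors Npas4 and Fos, within minutes. Their messenger RNAs, and those of the effectors they regulate, report recent activity in a block of tissue.

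The promoters of Fos and Npas4 are shown because these genes separate the SD side from both other groups, and that of Mid1 because it was the 1 gene called between the opposite hemisphere and sham. Each window runs from 250 bases before to 50 bases after a RefSeq start on GRCm38.p6, in gene direction. Capitals mark TGACGT, the core of the cAMP response element, and TATAA, the core of the TATA box, on either strand.
Fos, chr12:85473640-85473939, plus strand: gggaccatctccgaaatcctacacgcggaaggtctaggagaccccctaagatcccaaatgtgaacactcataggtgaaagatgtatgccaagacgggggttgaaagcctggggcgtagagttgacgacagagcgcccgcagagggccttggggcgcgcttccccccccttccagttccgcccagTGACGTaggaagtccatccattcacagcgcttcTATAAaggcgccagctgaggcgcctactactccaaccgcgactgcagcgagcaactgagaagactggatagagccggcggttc
Npas4, chr19:4989922-4990221, minus strand: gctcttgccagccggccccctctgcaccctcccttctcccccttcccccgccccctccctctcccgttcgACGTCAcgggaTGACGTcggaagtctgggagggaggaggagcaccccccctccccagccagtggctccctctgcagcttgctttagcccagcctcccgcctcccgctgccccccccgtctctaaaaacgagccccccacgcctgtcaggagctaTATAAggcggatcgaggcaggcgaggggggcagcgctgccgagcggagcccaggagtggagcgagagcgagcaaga
Mid1, chrX:169684949-169685248, plus strand: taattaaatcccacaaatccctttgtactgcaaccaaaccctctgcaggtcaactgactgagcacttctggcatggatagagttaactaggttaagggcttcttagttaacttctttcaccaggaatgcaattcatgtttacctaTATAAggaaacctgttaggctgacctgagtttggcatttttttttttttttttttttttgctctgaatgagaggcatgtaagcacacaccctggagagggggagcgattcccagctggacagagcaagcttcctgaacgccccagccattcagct
TGACGT stands once in the Fos window and at 2 places in that of Npas4, and these letters are not in the Mid1 window. Of 32851 promoter windows of this length, 7.51% hold TGACGT and 24.9% hold TATAA on either strand. RefSeq gives Mid1 a further 2 windows, at chrX:169827909-169828208 and chrX:169879369-169879668. The deposited value of Mid1 is 1 number per gene, so the use of these starts was not measured.

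Expression was given as FPKM (fragments scaled to transcript length and to the mapped fragments of a library). The tables hold no read counts and the depth of each library is unknown. Summed over the table, FPKM came to 217183 to 225793 in the 6 libraries, and 11802 to 12030 genes reached 1 FPKM. Defining markers of cortical neurons and glia were all listed: the summed FPKM of 7 markers of excitatory neurons was 229 to 238 on the opposite side and 233 to 259 in sham, and that of 4 astrocyte markers 225 to 282 and 292 to 312. One library stood apart. Thy1, whose promoter drives the transgene, was at 163 FPKM in sham replicate 2, inside the range of 149 to 167 FPKM of the 9 wild-type libraries of the KCl system. The other 8 libraries of the optogenetic system were at 374 to 645 FPKM. Sham replicate 2 is therefore called the library labelled sham replicate 2. The genes called, Mid1 and several of the gene lists are also given without it. Whether the deposited Thy1 value includes reads of the transgene was not tested.

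The opposite hemisphere differed little from sham. Genes were tested where the 9 optogenetic libraries averaged 0.5 FPKM or more. Of these 12990, limma called 1, Mid1, which fell (0.0077% of the genes tested, at an adjusted p under 0.05). No gene rose by that test. At an unadjusted p under 0.05 there were 754 genes, 5.8% of those tested, 439 higher and 315 lower on the opposite side. The median log2 difference over all genes was 0.01, and the middle 98% of genes lay between -0.48 and 0.51. The 95% interval of the difference lay within a 2-fold change in either direction for 12524 genes (96.4%) and within a 1.5-fold change for 11377 genes (87.6%). Of the differences 52.0% were above 0 and 48.0% below. The 3 libraries of the opposite side all stood above the 3 sham libraries for 6.59% of the genes and all below them for 4.33%, 10.9% in either direction. By the q of the authors' deposited table, Ccl27b alone was under 0.05, and 715 genes had a p under 0.05. Without the library labelled sham replicate 2, Mid1 was again the 1 gene called. The sources do not say more of the replicates than their titles, so the p values measure the spread between these libraries.

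**Figure D1:**
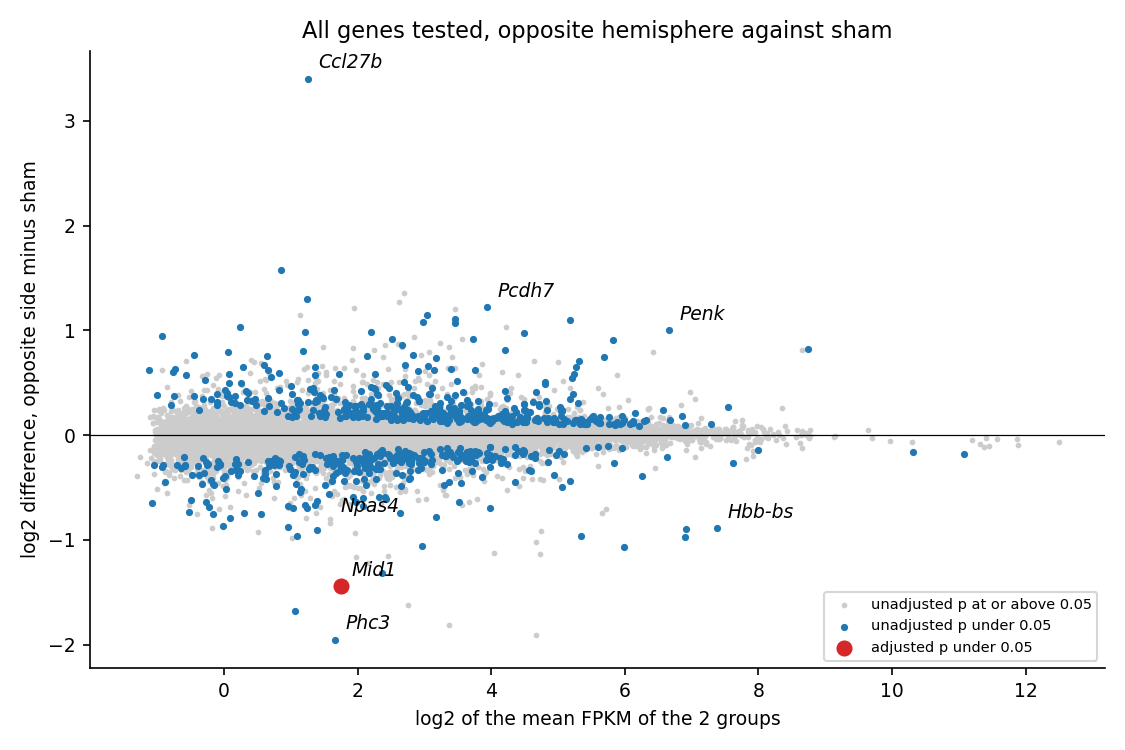
Log2 difference between the opposite hemisphere and sham (vertical axis, log2(FPKM + 0.5), positive where the opposite side is higher) against the log2 mean FPKM of the groups, 1 point per gene for 12990 genes. Grey points have an unadjusted limma p at or above 0.05, blue points one below it, and the red point is Mid1, the 1 gene with an adjusted p under 0.05, at -1.44.

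Mid1 (ENSMUSG00000035299.16, chromosome X, 169685199 to 170005736, plus strand, GRCm38) encodes midline 1, a microtubule-associated ubiquitin ligase that binds the regulator of protein phosphatase 2A and is mutated in the X-linked form of human Opitz syndrome. It was at 1.38, 1.65 and 1.69 FPKM on the opposite side and at 5.34, 4.32 and 5.82 FPKM in sham. The groups did not overlap, and the highest library of the opposite side stood well under the lowest sham library. The means were 1.57 ± 0.172 and 5.16 ± 0.766 FPKM (SD, n = 3 mice each), and Mid1 fell by a log2 difference of -1.44 (SE 0.11, 95% interval -1.70 to -1.19, limma adjusted p = 0.00654). The SD hemisphere of the same mice held 1.52, 1.63 and 1.47 FPKM, within the range of the opposite side, and the difference between the sides was -0.02 (adjusted p = 0.985). Both sides of the stimulated mice thus stood at one level and the sham mice at another, and what sets the mice apart other than stimulation is not given in the sources used here. Without the library labelled sham replicate 2 the difference was -1.56 (adjusted p = 0.0046). In the authors' deposited table Mid1 had a log2 fold change of -1.25, a p of 0.000481 and a q of 0.587.

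In the KCl system Mid1 was low in all 9 libraries, between 0.586 and 1.09 FPKM. The opposite side held 0.88, 1.09 and 0.586 FPKM and NaCl sham 0.657, 0.881 and 0.767 FPKM, and the groups overlapped (log2 difference 0.08, adjusted p = 0.969). Set against these wild-type libraries, the 3 optogenetic sham libraries were the high ones. Levels across the systems come from tables made separately and were not tested against each other. The effects were tested: the optogenetic difference minus the KCl difference was -1.52 (SE 0.20, limma interaction adjusted p = 0.0272), the 1 gene called of 12897 (0.00775%, and 6.81% had an unadjusted p under 0.05). The interaction call was lost with a pseudocount of 0.1, with the compared libraries alone and without most single libraries, as given in the closing section.

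Neighbours and partners of Mid1 did not pass the test. Within 1 Mb of the gene the table lists Hccs, which attaches heme to cytochrome c, Arhgap6 and the predicted gene Gm21887. Hccs was at 4.86, 5.73 and 5.45 FPKM on the opposite side and 5.74, 5.67 and 5.9 FPKM in sham, with overlapping groups (log2 difference -0.10, SE 0.08). Arhgap6 was at 0.677, 0.53 and 0.651 FPKM against 0.41, 0.451 and 0.489 FPKM, with each opposite-side library above sham (0.23, SE 0.11, adjusted p = 0.842). Gm21887, which starts just past the end of Mid1, stood at 30.5, 13.3 and 12.8 FPKM on the opposite side and at 13.1, 35.8 and 13.7 FPKM in sham, so that 1 library of each group was far above the others. A list of 11 genes for the Mid1 pathway (its paralogue, binding partners and subunits of protein phosphatase 2A) was chosen with earlier results of these data known. Of these, 10 were tested and no other than Mid1 passed at an unadjusted p under 0.05. The median of the 10 was 0.03, beside 0.01 over all genes. Mid1ip1, a binding partner, was at 26.7 FPKM in opposite-side replicate 1, against 10.97 to 13.5 FPKM in the other 5 libraries.

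**Figure D2:**
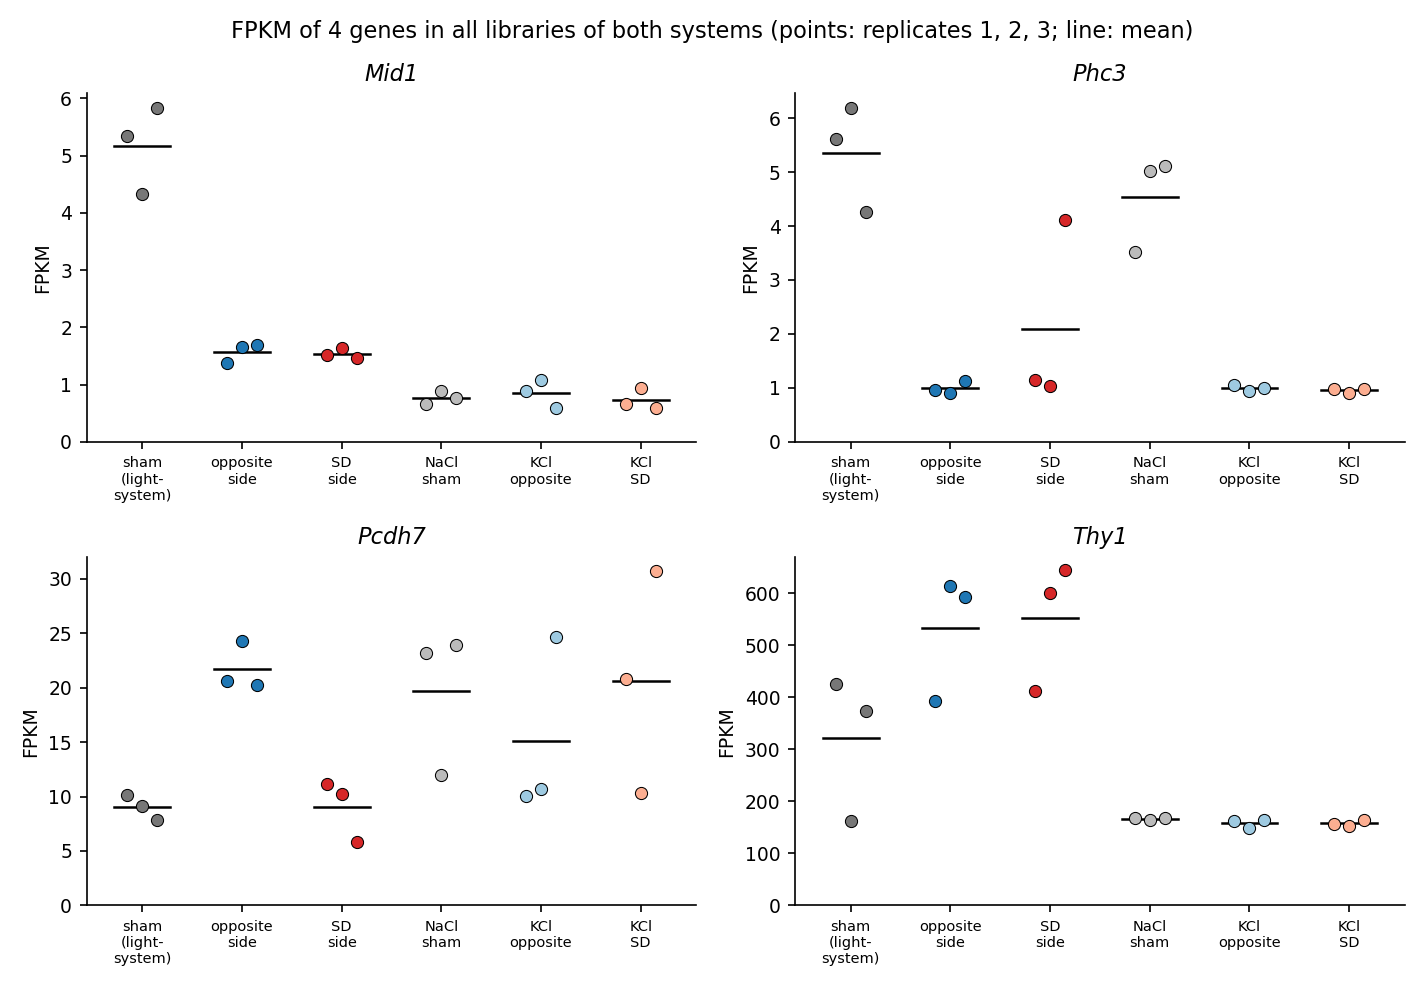
FPKM of Mid1, Phc3, Pcdh7 and Thy1 (linear axes from 0) in the optogenetic system (sham, opposite side, SD side) and the KCl system (NaCl sham, opposite side, SD side). Points are libraries in the order of replicates 1 to 3 and lines are means. Mid1 was high in the 3 optogenetic sham libraries at 4.32 to 5.82 FPKM, and Thy1 in sham replicate 2 was at 163 FPKM, within the range of the wild-type libraries.

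The genes with the smallest p after Mid1 are given by the same rule for each direction: the 12 with a mean of at least 1 FPKM, groups that do not overlap and an established symbol. No gene in these lists other than Mid1 passed over all genes, and their adjusted p lay between 0.509 and 0.83. Non-overlap was part of the rule and is no further evidence. Phc3 (ENSMUSG00000037652.15, chromosome 3, 30899371 to 30969415), a polyhomeotic subunit of Polycomb repressive complex 1, had the largest difference among those lower. It was at 0.969, 0.905 and 1.12 FPKM on the opposite side and at 5.62, 6.19 and 4.26 FPKM in sham (log2 difference -1.95, SE 0.37, 95% interval -2.79 to -1.12, adjusted p = 0.551). The SD side was split, with 1.14, 1.03 and 4.11 FPKM, and this spread enters the fit of 9 libraries. With the 6 libraries of the comparison alone Phc3 passed (adjusted p = 0.0179), and without SD replicate 3 as well (0.00365).

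Phc3 gave a like picture after KCl, in other mice. There the opposite side held 1.06, 0.939 and 0.996 FPKM and NaCl sham 3.51, 5.01 and 5.11 FPKM, without overlap. Phc3 fell there by a log2 difference of -1.74 (adjusted p = 0.00459) and was the 1 gene called of 12932 in that comparison (0.00773%, and 5.64% had an unadjusted p under 0.05). The KCl call was lost with its 6 libraries alone, where limma called 0 genes, as with the replicate block. The difference between the systems was -0.22 (SE 0.42, adjusted p = 0.936). All 18 libraries stood either near 1 FPKM or at 3.51 to 6.19 FPKM, with the SD side after KCl in the low set. Of the 15 other subunit genes of Polycomb complex 1 tested, none passed at an unadjusted p under 0.05: Phc1, its paralogue, differed by -0.13 (SE 0.07), and Cbx2, a chromodomain subunit that fell on the SD side (-1.02, adjusted p = 0.0153), differed by 0.16 (SE 0.14) on the opposite side.

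Stim1, the calcium sensor of the endoplasmic reticulum, was at 4.96, 5.2 and 5.37 FPKM on the opposite side and at 7.78, 7.4 and 7.13 FPKM in sham (log2 difference -0.48, SE 0.08, adjusted p = 0.509). On the SD side it was at 5.19, 4.45 and 4.3 FPKM and fell against the same sham libraries (-0.63, adjusted p = 0.00833). As for Mid1, both sides of the stimulated mice were under all sham libraries. After KCl the Stim1 difference was -0.28 with overlapping groups. Mpc1, a subunit of the mitochondrial pyruvate carrier, differed by -0.33 (21.3, 21.8 and 19.5 FPKM against 26.2, 27.6 and 25.4 FPKM). Srp14, of the signal recognition particle, differed by -0.49, with the SD side at 36.2 to 42.8 FPKM beside 36.5 to 42.8 FPKM in sham.

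The other lower genes of the rule are of varied function. They are the Notch coactivator Maml2 (-0.47), the membrane-bending protein gene Fnbp1 (-0.46), the NAD-cleaving Sarm1 of axon degeneration (-0.44), the glypican Gpc4 (-0.47), the receptor of glial cell line-derived neurotrophic factor Gfra1 (-0.75), the zinc finger gene Zfp467 (-0.52) and Leng8 (-0.27). Gfra1 was at 4.7, 4.13 and 4.67 FPKM on the opposite side and 6.66, 7.81 and 9.35 FPKM in sham. Below the limit of 1 FPKM, and chosen after their values were seen, Nrg1 and Ucma had the smallest p values after Mid1. Nrg1, the growth factor neuregulin 1, was at 0.582, 0.524 and 0.543 FPKM against 1.33, 1.44 and 1.5 FPKM in sham (-0.87, SE 0.13, adjusted p = 0.3), while the SD side held 0.894, 1.38 and 1.36 FPKM. Ucma, a secreted matrix protein gene known from cartilage, was at 0.437, 0.461 and 0.297 FPKM against 0.984, 0.983 and 1.01 FPKM (-0.74, SE 0.10, adjusted p = 0.3), and it fell on the SD side (-0.90).

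Among genes that were higher, Pcdh7 (ENSMUSG00000029108.14, chromosome 5, 57717967 to 58133230), a protocadherin of neuronal adhesion, had the smallest p. It was at 20.6, 24.3 and 20.2 FPKM on the opposite side and at 10.2, 9.16 and 7.85 FPKM in sham (log2 difference 1.22, SE 0.21, 95% interval 0.74 to 1.69, adjusted p = 0.551). The SD side was at 11.2, 10.2 and 5.82 FPKM, so that the opposite side stood above both other groups, and Pcdh7 fell from the opposite to the SD side (SD side minus opposite side -1.26, limma adjusted p = 0.0427, where 0.0539% of genes were called lower). That fit between sides did not pair the libraries of a mouse. With the 6 libraries alone the difference from sham passed (adjusted p = 0.0411). After KCl the gene stood at 10.003, 10.7 and 24.7 FPKM on the opposite side and at 23.2, 11.9 and 23.9 FPKM in sham, so that libraries of 1 group lay on both levels.

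Kcnip4, a subunit of A-type potassium channels, was at 16.2, 13.2 and 20.4 FPKM against 10.5, 10.6 and 10.1 FPKM in sham (0.63, SE 0.13), with the SD side at 9.29 to 11.04 FPKM. Eps8, a regulator of actin, was at 2.34, 2.32 and 2.52 FPKM against 1.47, 1.68 and 1.65 FPKM (0.46, SE 0.09), with the SD side at 2.27 to 2.7 FPKM. Eps8 was thus high on both sides of the stimulated mice, and Kcnip4 on the opposite side alone. The other differences were 0.58 for Ankrd63, 0.51 for Tmem158, 0.50 for the potassium channel Kcna5, 0.48 for the phosphodiesterase Pde7b, 0.44 for the amidase Nit2, 0.34 for the synaptic scaffold Baiap2, 0.31 for the calcium-binding Caln1 and 0.30 for the sialyltransferase St8sia3. The last of the rule is the chemokine gene Ccl27b. It was at 4.88, 5.07 and 4.42 FPKM on the opposite side and listed at 0 in all 3 sham libraries, and on the SD side it was listed at 0, 0 and 4.22 FPKM. The table holds 3 entries of its near-identical copy Ccl27a, 2 of them on unplaced sequence, among which reads may be split, so the values of Ccl27b are uncertain. After KCl Ccl27b was listed at 0 in the opposite-side libraries and at 0, 4.71 and 2.44 FPKM in NaCl sham.

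Genes that SD induces did not rise on the opposite side. A list of 27 immediate early transcription factors was chosen with earlier results of these data known. Of these, 26 were tested, and limma called 0, with 0 higher and 2 lower at an unadjusted p under 0.05. The opposite-side libraries all stood above or all below sham for 0 of the 26, beside 10.9% of all genes. Sham values of these genes spread widely, as given below, so this count says little. The median log2 difference of the 26 was -0.18, beside 0.01 over all genes, with 4 above 0 and 22 below. On the SD side of the same mice 13 of the 26 were called higher against the same sham libraries, with a median of 1.13 (0.408% of all genes were called higher there). Npas4 (ENSMUSG00000045903.8), induced by calcium entry into active neurons, was at 1.38, 1.56 and 1.75 FPKM on the opposite side, at 1.99, 1.41 and 9.9 FPKM in sham and at 181, 240 and 256 FPKM on the SD side. The opposite side overlapped the sham libraries and lay under every SD library (opposite side minus sham -0.84, SE 0.52, 95% interval -2.02 to 0.35; SD side minus opposite side 6.76, adjusted p = 0.000644, where 0.477% of genes were called higher).

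Fos was at 7.14, 6.69 and 7.64 FPKM on the opposite side, 9.19, 5.89 and 23.1 FPKM in sham and 137, 193 and 207 FPKM on the SD side. Sham replicate 3 was again the high one of its group. The difference between opposite side and sham was -0.57 (SE 0.40, 95% interval -1.47 to 0.33). Fosb, also an AP-1 subunit, was at 2.83, 2.19 and 2.98 FPKM against 2.67, 1.82 and 11.7 FPKM in sham (-0.51, SE 0.51). Egr1, a zinc finger factor, was at 46.5, 44.7 and 52.9 FPKM against 51.9, 43.9 and 67.8 FPKM (-0.16, SE 0.14). In each of these genes the opposite-side libraries were close to each other. Sham replicate 3 was the highest of its group and the library labelled sham replicate 2 the lowest. Relative to the sham mean, the list medians of these libraries were 0.22 and -0.32. The median spread of the 26 genes between libraries was 0.18 on the opposite side and 0.32 in sham (standard deviation of log2 values), against 0.10 in both groups over all genes.

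Without sham replicate 3 the median of the 26 genes was 0.00, and 0 passed at an unadjusted p under 0.05. Without the library labelled sham replicate 2, which had the lowest sham values, 9 of 26 were lower at that level, with a median of -0.29. The 2 that were lower at that level with all libraries were Junb and Csrnp1 (2.42% of all genes were lower). Without opposite-side replicate 2 the count was 1, and it was 0 without replicate 1 of either group. Junb, an inhibitory AP-1 partner, was at 19.1, 23.003 and 21.5 FPKM on the opposite side and at 28.2, 22.96 and 30.2 FPKM in sham (-0.34, SE 0.12, adjusted p = 0.842). In the KCl system the median of the list was -0.23, and Npas4 was at 1.16, 1.4 and 1.63 FPKM on the opposite side and at 27.5, 1.81 and 51.4 FPKM in NaCl sham. The NaCl sham libraries, too, differed from each other.

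Effectors of activity did not rise on the opposite side either. Of 25 effectors and secreted factors all were tested. At an unadjusted p under 0.05, 1 was higher and 1 lower (3.38% and 2.42% of all genes were), and the median was -0.04. The largest difference of the list was that of Penk (1.001), which is given with the striatal markers below. Arc, a synaptic capsid-like protein gene, was at 23.4, 18.5 and 22.5 FPKM on the opposite side, 21.5, 19.5 and 19.2 FPKM in sham and 159, 191 and 194 FPKM on the SD side. Its difference from sham of 0.09 (SE 0.10) had a 95% interval of -0.15 to 0.32. Ptgs2, the inducible cyclooxygenase, was at 2.46, 3.03 and 3.23 FPKM against 3.32, 2.15 and 7.94 FPKM in sham and 42.2, 57.4 and 86.1 FPKM on the SD side. Bdnf, a neurotrophin, was at 4.71, 6.01 and 7.02 FPKM against 5.11, 4.06 and 7.08 FPKM (0.13, SE 0.27), and the SD side reached 7.73 to 16.5 FPKM. The clock gene Per1 was at 13.6, 11.6 and 12.2 FPKM, under all sham libraries at 16.6, 13.9 and 15.9 FPKM (-0.30, SE 0.15, adjusted p = 0.848), and it rose on the SD side (0.95, adjusted p = 0.0289).

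The phosphatases and feedback inhibitors of MAP kinase signalling had a median of -0.03 on the opposite side over 18 tested of 19, with 0 at an unadjusted p under 0.05. Dusp6, the phosphatase of ERK, was at 9.47, 10.9 and 10.1 FPKM against 14.1, 10.008 and 27.9 FPKM in sham, with the highest value once more in replicate 3. On the SD side 8 of the 18 were called higher. Of all genes 0.477% were called there, 0.0693% lower. Among them, 53 rose there by a median of 1.25, and their median on the opposite side was -0.08, with a range of -0.84 to 0.23, 12 of them above 0 and 41 below. The 95% interval of the opposite-side difference held 0 for 50 of the 53. The other 3 had an unadjusted limma p under 0.05, beside 5.8% of all genes. The interval lay within a 2-fold change for 46 of the 53, beside 96.4% of all genes. The 9 genes that fell on the SD side had a median of -0.70 there and of -0.07 on the opposite side. Mid1, Ucma and Stim1 were low on both sides, while Hes1, a repressor downstream of Notch, was at 8.38, 9.87 and 7.6 FPKM on the opposite side, 8.45, 9.43 and 7.9 FPKM in sham and 3.19 to 4.88 FPKM on the SD side. The SD side and the opposite side are compared with the same sham libraries, so these values are set side by side and are not independent.

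**Figure D3:**
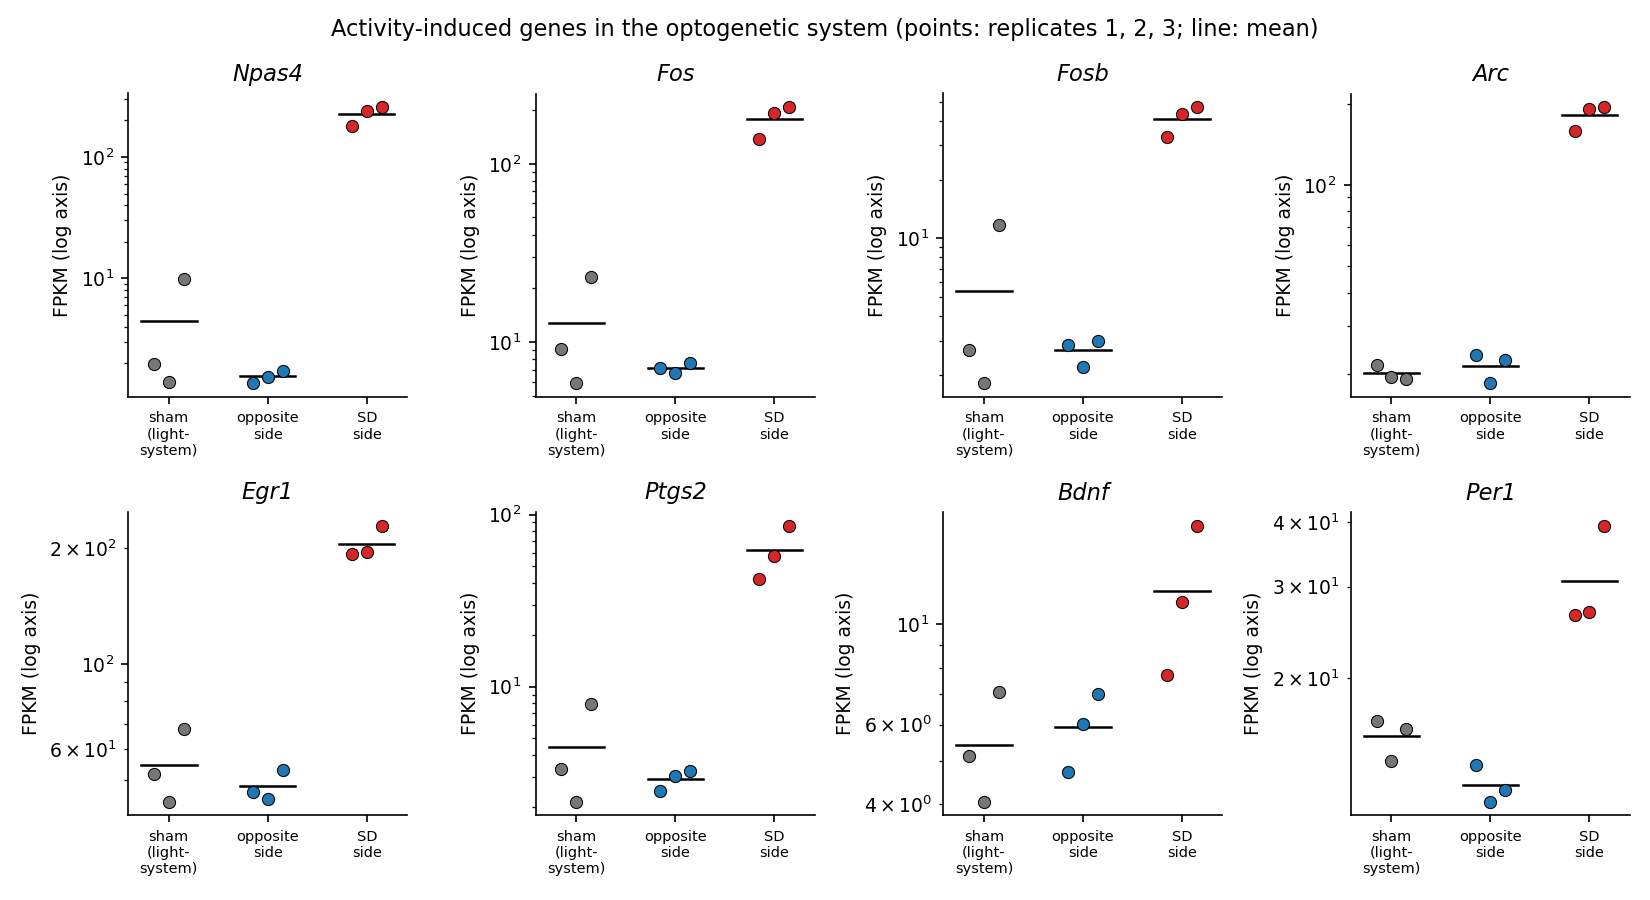
FPKM (log axes) of 8 activity-induced genes in the optogenetic libraries, with sham in grey, the opposite side in blue and the SD side in red. Points are libraries in the order of replicates 1 to 3 and lines are means. For Npas4 the opposite side sits at 1.38 to 1.75 FPKM, sham replicate 3 at 9.9 FPKM and the SD side at 181 to 256 FPKM.

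Markers of the striatum, which lies under the cortex, were higher on the opposite side. The list of markers of neighbouring regions holds 17 genes, all tested, with a median log2 difference of 0.70. Of the 17, 9 were higher and 1 lower at an unadjusted p under 0.05 (3.38% and 2.42% of all genes were). Above all sham libraries stood 8 genes and below them 2 (6.59% and 4.33% of all genes did), and 0 were called over all genes. The 11 striatal genes were all above 0 and the 6 genes of hippocampus and thalamus all below. Drd2, the D2 dopamine receptor, was at 10.4, 11.7 and 11.5 FPKM on the opposite side, 2.48, 7.82 and 5.5 FPKM in sham and 7.05, 8.47 and 3.36 FPKM on the SD side. The opposite-side libraries were close to each other and above both other groups (opposite side minus sham 1.14, SE 0.39, adjusted p = 0.842).

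Rgs9, which ends G protein signals in striatal neurons, was at 16.3, 18.6 and 16.9 FPKM against 6.02, 14.01 and 8.17 FPKM in sham (0.92, SE 0.27). Adora2a, an adenosine receptor of striatopallidal neurons, was at 14.3, 17.6 and 12.8 FPKM against 3.8, 11.3 and 6.48 FPKM (1.11, SE 0.38). Penk, which encodes proenkephalin and stood on the list of activity effectors, was at 119, 141 and 135 FPKM against 37.7, 104 and 70.9 FPKM (1.001, SE 0.32). The order within sham was the same in each, with replicate 1 lowest and the library labelled sham replicate 2 highest. Without replicate 1 of sham the list median was 0.38 with 2 genes higher at an unadjusted p under 0.05, and without the library labelled sham replicate 2 it was 0.99 with 11. Without opposite-side replicate 2 it was 0.60 with 3. In the KCl system the median was -0.28, and Drd2 ranged from 0.287 to 9.2 FPKM within 1 group. The summed FPKM of 5 defining striatal markers was 118 to 143 on the opposite side, 42.6 to 102 in sham and 48.3 to 94.7 on the SD side. In bulk tissue more cells of a type and more RNA per cell cannot be told apart.

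Genes of GABAergic neurons were not called. The summed FPKM of 6 defining interneuron markers was 397 to 420 on the opposite side, 366 to 384 in sham and 369 to 410 on the SD side. Of 15 interneuron genes, 3 were higher and 1 lower at an unadjusted p under 0.05 (3.38% and 2.42% of all genes were), with a median of 0.12. Their differences ran from -0.37 to 0.24, with 9 above 0 and 6 below. The count of higher genes was 1 without opposite-side replicate 2 or sham replicate 3, and 5 without opposite-side replicate 1. Without the library labelled sham replicate 2 it was 3, with 0 lower. Gad2, which makes GABA, was at 36.1, 37.1 and 35.2 FPKM against 29.4, 33.6 and 29.5 FPKM in sham (0.23, SE 0.06). Gad1 and the vesicular GABA transporter Slc32a1 differed by 0.18 and 0.24. Striatal projection neurons also use GABA, and the part of the striatal markers in these differences was not tested. Bcl11b, which marks deep-layer cortical and striatal neurons, differed by 0.24, and Camk2a, a kinase of excitatory neurons, by -0.14. The median of the 12 genes of excitatory neurons was -0.03.

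Red blood cell genes were lower on the opposite side. All 5 had an unadjusted p under 0.05 (2.42% of all genes were lower at that level), and 4 stood under every sham library (4.33% of all genes did). The median log2 difference was -0.90, with 0 called over all genes. The 5 genes are read in the same libraries and are not independent observations. The promoters of both adult beta globin genes are shown because Hbb-bs had the highest level of the list in each of the 6 libraries and Hbb-bt the lowest log2 difference. Capitals mark GATAAG, which erythroid GATA factors bind, then ACACCC, which Krüppel-like factors bind, and TATAA, each on either strand.
Hbb-bs, chr7:103827879-103828178, minus strand: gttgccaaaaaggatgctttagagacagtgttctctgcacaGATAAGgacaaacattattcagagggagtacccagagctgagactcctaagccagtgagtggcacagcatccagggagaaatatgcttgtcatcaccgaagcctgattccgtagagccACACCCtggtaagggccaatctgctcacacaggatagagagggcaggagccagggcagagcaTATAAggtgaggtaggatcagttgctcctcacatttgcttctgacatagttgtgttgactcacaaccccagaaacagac
Hbb-bt, chr7:103813874-103814173, minus strand: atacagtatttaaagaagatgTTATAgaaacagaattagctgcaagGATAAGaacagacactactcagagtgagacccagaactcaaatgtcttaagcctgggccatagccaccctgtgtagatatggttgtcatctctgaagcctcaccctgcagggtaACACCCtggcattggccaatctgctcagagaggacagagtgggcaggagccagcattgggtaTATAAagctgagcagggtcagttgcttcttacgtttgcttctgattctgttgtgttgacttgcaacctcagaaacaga
Each window holds GATAAG once, and likewise ACACCC. Of the 32851 promoter windows, 7.44% hold GATAAG and 5256 windows hold ACACCC.

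Hbb-bs, an adult beta globin, was at 95.6, 99.9 and 140 FPKM on the opposite side, 164, 147 and 353 FPKM in sham and 68.5, 105 and 121 FPKM on the SD side (opposite side minus sham -0.89, SE 0.33, adjusted p = 0.842). Sham replicate 3 held over 300 FPKM and the opposite side lay under all sham libraries. Hbb-bt was at 28.2, 35.6 and 53.3 FPKM against 61.8, 56.3 and 144 FPKM in sham (-1.07, SE 0.38). The alpha globins Hba-a1 and Hba-a2 are near-identical copies among which reads may be split, and differed by -0.90 and -0.97. Alas2, the erythroid enzyme of heme synthesis, was at 0.927, 0.813 and 1.68 FPKM against 1.6, 1.73 and 4.89 FPKM (-0.88). Without sham replicate 3 the median was -0.50 and 1 of the 5 had an unadjusted p under 0.05. Without opposite-side replicate 1 or 2 it was -0.79 and -0.84, with 0. Without the library labelled sham replicate 2 the median was -1.13, with 5 lower at that level. After KCl the median was 0.03. The summed FPKM of the list was 253 to 399 on the opposite side, 414 to 1030.5 in sham and 204 to 324 on the SD side. Whether residual blood differed between the dissections was not tested.

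**Figure D4:**
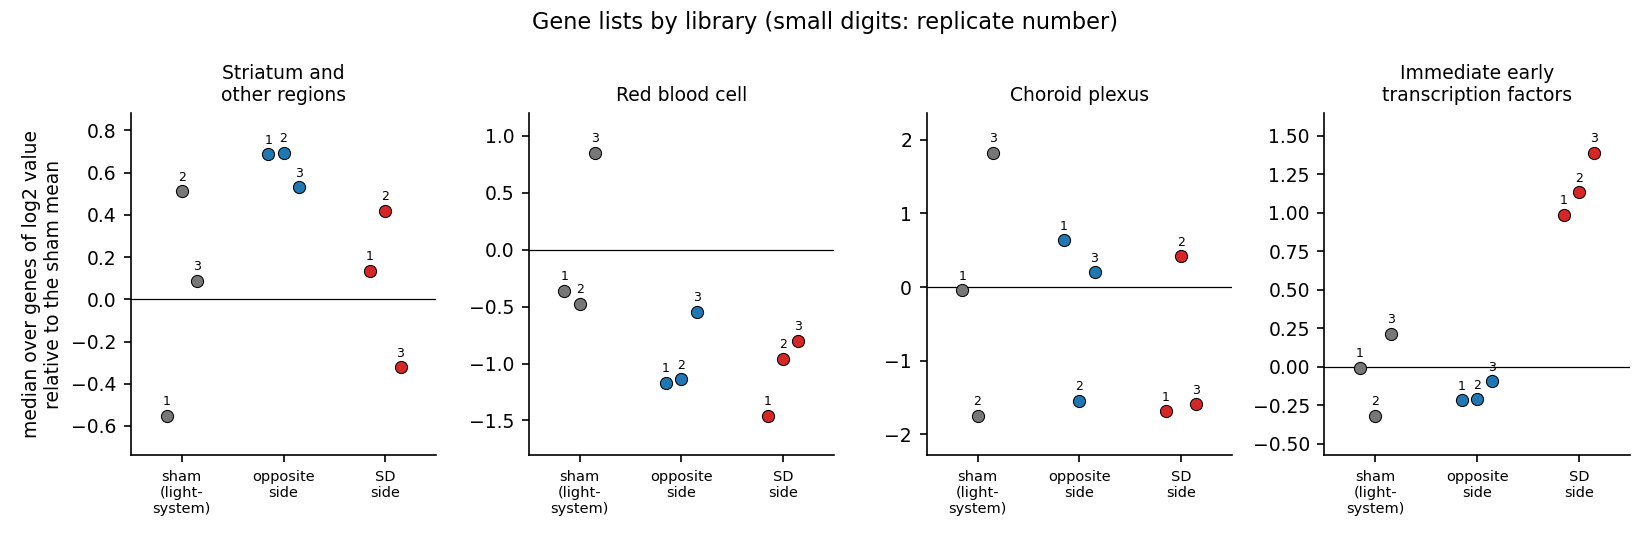
Median over the genes of 4 lists of log2(FPKM + 0.5) relative to the sham mean (vertical axes differ between panels), 1 point per library with its replicate number, for sham (grey), the opposite side (blue) and the SD side (red). Striatal and other region markers sit at 0.53 to 0.70 on the opposite side and from -0.55 to 0.51 in sham, and red blood cell genes are highest in sham replicate 3 at 0.85.

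Choroid plexus genes, which come from the ventricles, ranged over orders of magnitude within each group. Ttr, transthyretin, was at 597, 23.4 and 395 FPKM on the opposite side, 311, 2.57 and 1088 FPKM in sham and 5.07, 465 and 7.06 FPKM on the SD side. The groups overlapped throughout. Of 12 genes 11 were tested, 0 passed at an unadjusted p under 0.05, and no 95% interval lay within a 2-fold change. The median of -0.22 turned to 0.66 without sham replicate 3 and to 0.36 without opposite-side replicate 2.

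Glial and vascular lists had small median differences between the opposite side and sham. The summed FPKM of 4 defining astrocyte markers was lower on the opposite side without overlap (225 to 282 against 292 to 312). The sums of microglial, oligodendrocyte and endothelial markers overlapped. Among 18 homeostatic astrocyte genes 17 were below 0 and 2 were lower at an unadjusted p under 0.05 (2.42% of all genes were), with a median of -0.10. The count was 9 without sham replicate 1, 1 without the library labelled sham replicate 2, and 0 without sham replicate 3. Those 2 were Gjb6, connexin 30, at 15.8, 14.4 and 13.9 FPKM against 15.4, 18.7 and 18.1 FPKM (-0.23, SE 0.08), and Aqp4, the water channel of astrocyte endfeet, at 23.3, 23.7 and 23.9 FPKM against 25.4, 25.7 and 29.5 FPKM (-0.18, SE 0.06). Of 15 reactive astrocyte genes 6 were listed and 5 tested. Gfap was at 34.6, 28.9 and 30.6 FPKM against 32.7, 29.5 and 40.1 FPKM (-0.11, SE 0.13), and Serpina3n, an inhibitor of serine proteases, at 5.86, 4.67 and 5.83 FPKM against 6.94, 6.57 and 8.33 FPKM (-0.39, SE 0.12, adjusted p = 0.842). The 17 oligodendrocyte genes had a median of -0.08, with 13 below 0 and 1 lower at an unadjusted p under 0.05. All 9 genes of oligodendrocyte precursors were below 0, with a median of -0.10 and 0 at an unadjusted p under 0.05. For all 18 homeostatic astrocyte genes and all 9 precursor genes the 95% interval lay within a 2-fold change.

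The microglial list had a median of -0.06 over 20 entries tested, with 1 lower at an unadjusted p under 0.05 (2.42% of all genes were). That was Tyrobp, a signalling adaptor of microglial receptors, at 11.6, 11.8 and 13.3 FPKM against 13.98, 13.8 and 16.8 FPKM (-0.27, SE 0.09). Of 18 inflammatory genes 8 were listed and 7 tested, so most cytokines and chemokines were under the filter of the table. The lysosomal marker Cd68 was at 5.5, 6.27 and 5.15 FPKM against 5.18, 4.34 and 3.93 FPKM (0.31, SE 0.13), with overlapping groups. Of 11 pannexin and inflammasome genes 7 were tested, with a median of -0.09 and 0 at an unadjusted p under 0.05. Hmgb1, a nuclear protein that cells release on damage, was at 36.05, 26.02 and 26.3 FPKM against 24.8, 27.1 and 26.6 FPKM (0.15, SE 0.11), with 1 high library on the opposite side. Interferon-stimulated genes had a median of -0.08 over 17 tested of 26 and 1 lower at an unadjusted p under 0.05. Endothelial, pericyte and meningeal lists had medians of -0.05, -0.03 and -0.01, with 1, 0 and 0 genes at that level (5.8% of all genes were, in either direction).

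Lists of basic cell functions had small medians. The 75 respiratory chain genes had a median of 0.04, the 80 ribosomal protein genes one of 0.01 and the 27 receptor subunits for glutamate and GABA one of 0.01, and the 95% interval lay within a 2-fold change for all genes of these 3 lists. Above 0 stood 60 of the 75 respiratory chain genes and 56 of the 80 ribosomal protein genes, beside 52.0% of all genes. The medians of both lists were highest in opposite-side replicate 1 (0.10 and 0.12 relative to the sham mean). Of 20 heat shock genes 18 were above 0 with a median of 0.07. Hspa8, a constitutive chaperone, was at 209, 194 and 206 FPKM against 156, 152 and 201 FPKM in sham (0.27, SE 0.11). The circadian list had a median of 0.00 over 18 genes, 9 on either side of 0. Hlf, a clock-controlled factor, was at 26.6, 42.1 and 24.8 FPKM against 42.4, 43.1 and 38.1 FPKM (-0.44, SE 0.17, adjusted p = 0.842). Without opposite-side replicate 2, the high one, it passed at -0.67 (adjusted p = 0.0225). The glucocorticoid list, of genes that respond to stress hormones, had a median of -0.13 over 17 genes, 14 of them below 0, and 0 at an unadjusted p under 0.05. Among 11 hemiplegic migraine genes and trigeminovascular receptors tested, Htr1b, the serotonin receptor that triptans bind, was at 2.29, 3.6 and 3.08 FPKM against 1.71, 2.27 and 2.12 FPKM (0.45, SE 0.14, adjusted p = 0.842).

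**Figure D5:**
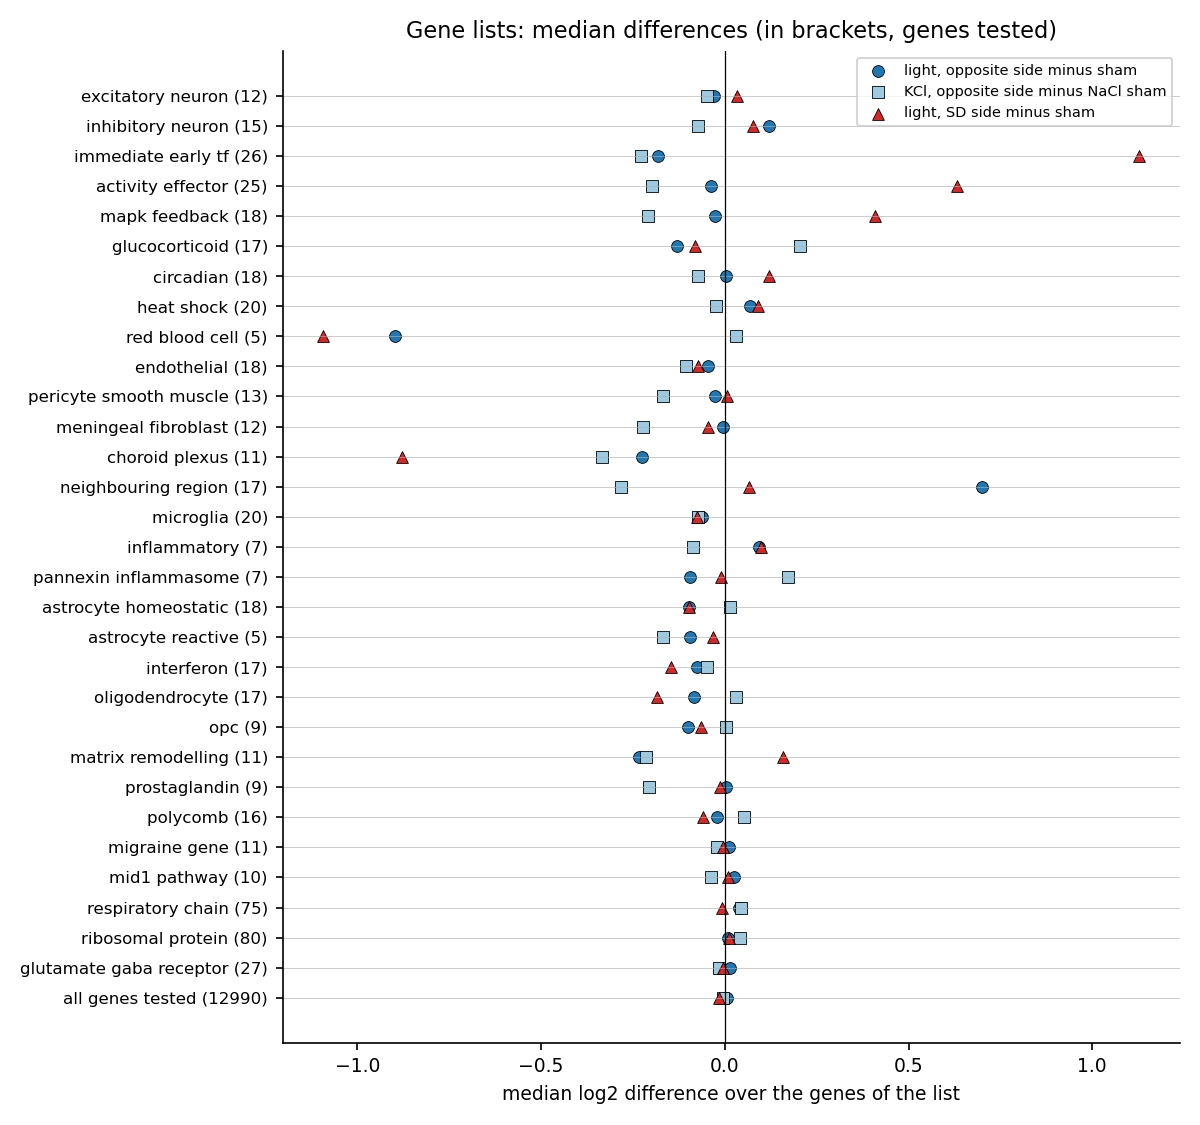
Median log2 difference (horizontal axis) over the genes of each list, with the number of genes tested in brackets, for the opposite hemisphere after light against sham (circles), the opposite hemisphere after KCl against NaCl sham (squares) and the SD hemisphere after light against sham (triangles). Circles and triangles share their sham libraries. The immediate early list sits at -0.18, -0.23 and 1.13, and the list of neighbouring regions at 0.70, -0.28 and 0.07.

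The opposite hemisphere after KCl was compared with its own sham in 6 other libraries, from wild-type mice. Phc3, called there, was among the 12 lower genes of smallest p after light. Across 12792 genes tested in both systems the log2 differences correlated at r = -0.07 (-0.08 by Spearman's rank correlation). The points are genes of the same libraries and not independent replicates, and no p is given. Of 743 genes with an unadjusted p under 0.05 in the optogenetic comparison, 38.0% had the same sign after KCl, beside 46.8% of all genes. At that level 49 genes stood in both comparisons, 6.59% of the optogenetic and 6.79% of the KCl ones, and 18 of the 49 had the same sign. Next to Mid1, Gm20708 and Rgs11 had the smallest p in the test of the difference between the systems (adjusted p = 0.534 each). Rgs11, a regulator of G protein signalling, was at 4.18, 4.37 and 3.64 FPKM on the opposite side after light against 5.44, 5.51 and 4.51 FPKM, and at 3.28, 3.92 and 3.66 FPKM after KCl against 2.24, 2.39 and 2.81 FPKM. The groups did not overlap in either system: the opposite side lay under sham after light and above NaCl sham after KCl. Rgs11 was picked by its p for this difference, so the separation is no further evidence.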

How the data were processed

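Poly(A) RNA of mouse cortex was sequenced with a stranded kit and paired reads, per the labels' protocols. Per the submitters' processing notes, StringTie and GRCm38 were used. No version is given. The deposited tables give FPKM per gene and library. The authors' tables also hold group means and a fold change on the log2 scale, the same fold as a ratio, and p-value and q-value columns. The deposited group means equal mean log2(FPKM + 1), and an equal-variance comparison on that scale gives the authors' p, within 1e-06, for 100% of the genes. The table lists genes that reach 0.5 FPKM on average in 1 or both groups. One line without data was left out, and 176 listed genes did not pass the filter below.

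The 9 optogenetic libraries, 3 per group, were fitted together with limma 3.58.1 (R 4.3.3) on log2(FPKM + 0.5), with a prior variance that follows the mean. This fit does not pair the sides of a mouse, so every p given between the SD side and the opposite side treats their libraries as independent. Genes averaging under 0.5 FPKM over the 9 libraries were left out. A gene was called, and is said to have risen or fallen, at a Benjamini-Hochberg adjusted p under 0.05. Differences are on this scale, which understates the change of low genes. ± values are standard deviations and SE is limma's standard error. The KCl system was fitted likewise, and the difference between systems in 1 fit of 18 libraries. The fit was tried on simulated libraries with independent noise. These held no sides shared by a mouse, and the trial is not evidence for the calls.

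Genes named are those called, 12 per direction by smallest p, up to 3 per list, those within 1 Mb of a called gene, the leading ones of the difference between systems and a few fixed ones. Others are said to be chosen after their values were seen. The members and the 30 gene lists were chosen with earlier results of these data known. Alternatives were pseudocounts of 0.1 and 1, no filter, a filter of 2 FPKM, scaling by quantiles or by median of ratios, the 6 libraries alone, a constant prior variance, blocks for replicate or mouse, the authors' p and q, and leaving out each library. Promoters came from RefSeq tables.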

Additional observations from a re-analysis of the deposited data

Results flagged for a closer look

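Mid1 differed between the systems. Its difference between opposite side and sham was -1.44 after light and 0.08 after KCl, and the difference between these effects was -1.52 by an interaction term in limma (SE 0.20, adjusted p = 0.0272). All 3 libraries of the opposite side were under all 3 sham libraries after light, and the groups overlapped after KCl. What distinguishes the optogenetic sham mice from the stimulated ones, other than the labelled treatment, was not tested.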

How the results depend on the processing

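Limma called 1 gene, Mid1, also under other pseudocounts, filters and scalings, and where the mouse was a random block. It called 2 with a constant prior variance (with Ucma) and 4 with the 6 libraries alone (with Pcdh7, Phc3 and Ccl27b). Leaving out 1 library gave 1 to 5 genes: 5 without opposite-side replicate 2, 4 without sham replicate 1 and 4 without SD replicate 3. In the authors' deposited table the 1 gene was Ccl27b and Mid1 was at -1.25 (q 0.587). With the replicate block limma called 0 genes, with 786 at an unadjusted p under 0.05, and Mid1 was at -1.44 (adjusted p = 0.0952). Replicate numbers are only shared between stimulated and sham mice: deviations of same-numbered libraries correlated at -0.17, 0.16 and 0.08, and those of the sides of a mouse at 0.14, -0.09 and 0.02. Without single libraries Mid1 stayed between -1.56 and -1.36 (adjusted p 0.0046 to 0.0456).

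For the KCl comparison 0 genes were called with the 6 libraries alone, with the replicate block or in the authors' table, and 1 to 7 without single libraries. For the difference between systems the count was 0 with a pseudocount of 0.1, a filter of 2 FPKM (which removes Mid1, so its difference has no value there) or the compared libraries alone, and 0 to 2 without single libraries. Its Mid1 value was -1.75 with the pseudocount of 0.1 (adjusted p = 0.191), -1.52 with the compared libraries alone (0.234) and -1.67 to -1.40 without single libraries (0.00587 to 0.137). The 62 genes called on the SD side were 41 with the libraries compared alone, 1 in the authors' table and 38 to 62 without single libraries. Without the library labelled sham replicate 2 they were 39.

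Some differences from sham turned sign when 1 library was left out, none of them called. Their ranges were -0.0012 to 0.23 for Hmgb1, -0.23 to 0.46 for Timm22, -0.10 to 0.081 for Hes1, -0.81 to 0.26 for Enpp2, -1.24 to 0.56 for Kl, -0.49 to 0.37 for Gm21887, -0.030 to 0.29 for Ptgds, -0.040 to 0.33 for Bdnf, -0.57 to 0.0097 for Col1a1, -0.65 to 0.076 for Igf2, -0.21 to 0.011 for Gfap, -0.74 to 0.091 for Ptgs2, -0.98 to 0.22 for Fosb and -0.31 to 0.0059 for Egr1. The cause was not tested. Of 2498 values for 126 named genes under the alternatives, 2467 kept direction and side of the threshold. The tables give no depth, so counting error in low genes could not be set apart.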
